A study of Capra hircus with 6 samples.

Results

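Thrombospondins, fibronectin and the matricellular glycoproteins are secreted proteins of the extracellular matrix. The 8 genes described here were chosen by name, as THBS1, THBS2, THBS3, FN1, TNC, POSTN, SPARC and VCAN. Each had 1 row among the 16285 genes of both deposited tables, and all 8 passed the filter on low values, which left 10761 genes for testing. Their transcripts were read by RNA sequencing of adipose mesenchymal stem cells from goat (Capra hircus), cultured cells of the fat stroma with the capacity to become adipocytes. The 3 control libraries carried the genotype label WT and the 3 others the label of YAP overexpression, and the treatment label of all 6 was adipogenic differentiation. YAP, encoded by YAP1, is a transcriptional coactivator held in check by the Hippo kinases. The series' design text names a line overexpressing TAZ, the paralog of YAP, where the sample labels name YAP. The labels name no clone, vector, age or time of sampling, nor whether the replicates of a group were separate cultures or animals. P-values therefore measured only how far these samples differ among themselves, which may be technical.

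Fibronectin is an adhesive glycoprotein that cells assemble into fibrils through integrin receptors. Thrombospondins, tenascin-C, periostin and SPARC are matricellular proteins, which adjust how cells attach to the matrix and respond to growth factors more than they bear load. Versican is a large chondroitin sulfate proteoglycan that binds hyaluronan and makes a loose, hydrated matrix. In adipose tissue, such proteins are made mainly by stromal cells, and the matrix around preadipocytes is remodelled as they become fat cells.

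Levels are in FPKM, which divides a gene's fragments by its length in kilobases and by the counted fragments of the library, so different genes are compared per length below. Whole reads recovered from the deposited FPKM gave totals of 32593380 to 37131015 counted fragments per library, and the same gene lengths made the reads of both tables whole. No replicate pair agreed within counting noise, with a chi-square per gene of 7.69 to 30.7. Log2 changes are differences of mean log2(FPKM + 1), labelled YAP minus control, from limma with Benjamini-Hochberg adjustment over all tested genes. The level of YAP1 itself was 27.2 ± 1.54 FPKM in control libraries against 27.4 ± 1.57 FPKM in the others (SD, n = 3 each; log2 change 0.01, SE 0.08, limma adjusted p = 0.95). WWTR1, which encodes TAZ, fell by 0.56 on the log2 scale (SE 0.10, limma adjusted p = 0.0013), to 21.4 ± 1.98 FPKM. Because neither transcript was higher there, that group is called the libraries labelled YAP, and each direction below is that of the label. In bulk RNA, fewer cells of a type and less RNA per cell cannot be told apart. All 8 stromal markers were tested, of which 5 rose and 2 fell, where 12.9% of all tested genes were called higher and 23.0% lower. The summed level of the 8 markers ran from 6186 to 6810 FPKM across controls and from 10100 to 10460 FPKM across the other group. The largest parts of that sum were the matrix genes COL1A1 (3674 ± 73.9 to 5890 ± 166 FPKM) and DCN (1430 ± 122 to 2767 ± 69.1 FPKM). The 2 that fell were NT5E (170 ± 10.9 to 127 ± 6.38 FPKM) and ENG (150 ± 14.8 to 80.8 ± 4.98 FPKM). Of 7 adipocyte markers with a row, CIDEC, a lipid droplet protein gene, was the only tested one and fell from 18.3 ± 1.31 to 9.56 ± 0.854 FPKM (limma adjusted p = 3.2e-05). The other 6, PPARG, ADIPOQ, LPL, PLIN1, LEP and PLIN4, reached at most 0.236 FPKM in any library.

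THBS1, THBS2 and VCAN were higher in the libraries labelled YAP, by 2.42-fold, 1.90-fold and 2.54-fold in mean FPKM. The other 5 genes did not pass the test. Thus 3 of 8 were called higher and 0 lower by limma, where 35.9% of all tested genes were called, 12.9% higher and 23.0% lower. At an unadjusted p under 0.05, 4 of the 8 genes were higher and 0 lower, but the share of all tested genes at that level was not counted. Limma-voom on the recovered reads called 3 of the 8 higher and 0 lower, beside 1404 higher and 2441 lower among all 10761 tested genes. The background depended on scaling and on 1 library: among all calls, 36.0% were higher with the FPKM as deposited and 53.0% with median-of-ratios scaling, while leaving out YAP replicate 1 took the genes called lower from 2476 to 1387. The median log2 change was 0.29 over the 8 genes and -0.10 over all tested genes. The 3 calls held under all 14 alternative settings.

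**Figure D1:**
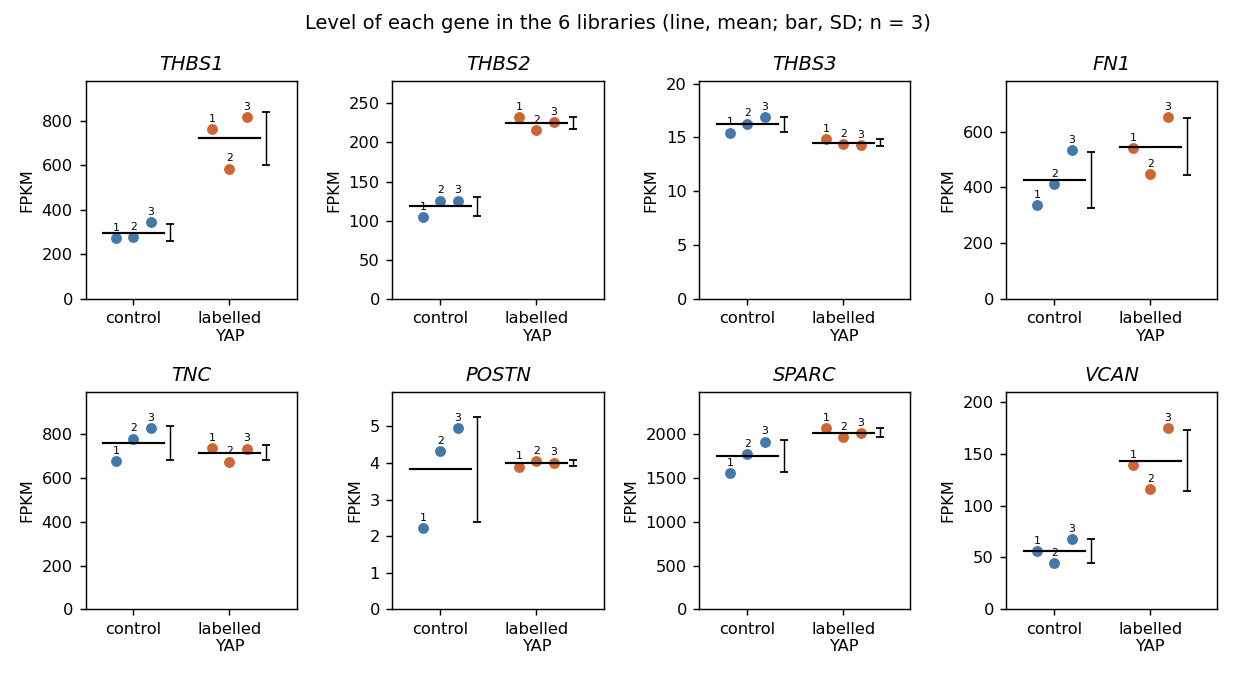
FPKM (vertical axis, from 0) of the 8 genes in the 3 control libraries and the 3 libraries labelled YAP. Points are libraries marked with their replicate number, lines are group means and bars are SD. THBS1, THBS2 and VCAN separate the groups widely, whereas the points of FN1, TNC and POSTN overlap between groups.

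Thrombospondins 1 and 2 form the trimeric branch of the family. THBS1 can activate latent TGF-beta, binds CD47 and CD36 and inhibits blood vessel growth. THBS1 stood at 274, 276 and 344 FPKM in control replicates 1 to 3 and at 762, 585 and 816 FPKM in the libraries labelled YAP. The groups did not overlap, and the lowest library labelled YAP, replicate 2, was well above the highest control. The log2 change was 1.27 (SE 0.13, 95% confidence interval 0.98 to 1.55, limma adjusted p = 2.6e-05), higher in 3 of 3 libraries. Only 1.62% of tested genes had a larger rise. Each value rested on 54061 to 175452 reads.

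THBS2, which shares the trimeric build and slows collagen fibril and vessel growth in mice, stood at 104, 126 and 125 FPKM in controls. In the libraries labelled YAP it stood at 232, 216 and 226 FPKM, a tight set (CV 3.63%) that lay above all controls. Its log2 change was 0.92 (SE 0.09, 95% confidence interval 0.73 to 1.12, limma adjusted p = 1.5e-05). THBS3 belongs to the pentameric branch with THBS4 and COMP. It stood at 15.4, 16.3 and 16.9 FPKM in controls and at 14.9, 14.3 and 14.3 FPKM in the libraries labelled YAP. Although the groups did not overlap, the difference was small and did not pass the test (log2 change -0.15, SE 0.08, 95% confidence interval -0.32 to 0.02, limma adjusted p = 0.16). After median-of-ratios scaling it was -0.07. The other pentameric genes were close to absent, with THBS4 at no more than 0.0191 FPKM and COMP at no more than 0.0751 FPKM in any library.

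The makeup of the thrombospondin transcripts was described as well. Of the summed FPKM of THBS1, THBS2 and THBS3, THBS1 made up 68.8% ± 2.47 in control libraries and 74.8% ± 2.80 in those labelled YAP (SD, n = 3 each). THBS2 made up 27.4% ± 2.31 and 23.6% ± 2.60, and THBS3 3.77% ± 0.258 and 1.53% ± 0.209. The shares of THBS2 overlapped between the groups, while those of THBS1 and THBS3 did not. The sum itself went from 433 ± 48.3 to 961 ± 128 FPKM. Ratios within a library are not moved by scaling whole libraries, and 8 such ratios were compared with exact two-sided permutation tests, which cannot give a p under 0.1 with 3 libraries on each side. A shift that depends on gene length would not cancel in these ratios. THBS3 has 3212 bases, against 5790 for THBS1 and 5715 for THBS2. The log2 ratio of THBS1 to THBS3 was 4.19 ± 0.14 in control libraries and 5.62 ± 0.25 in those labelled YAP, without overlap (difference 1.43, exact p = 0.1, adjusted over the 8 ratios 0.16). That of THBS2 to THBS3 was 2.86 ± 0.10 and 3.95 ± 0.04, again without overlap (difference 1.09, exact p = 0.1). For THBS1 to THBS2 the values were 1.33 ± 0.17 and 1.67 ± 0.21 and overlapped (difference 0.34, exact p = 0.2, adjusted 0.267).

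**Figure D2:**
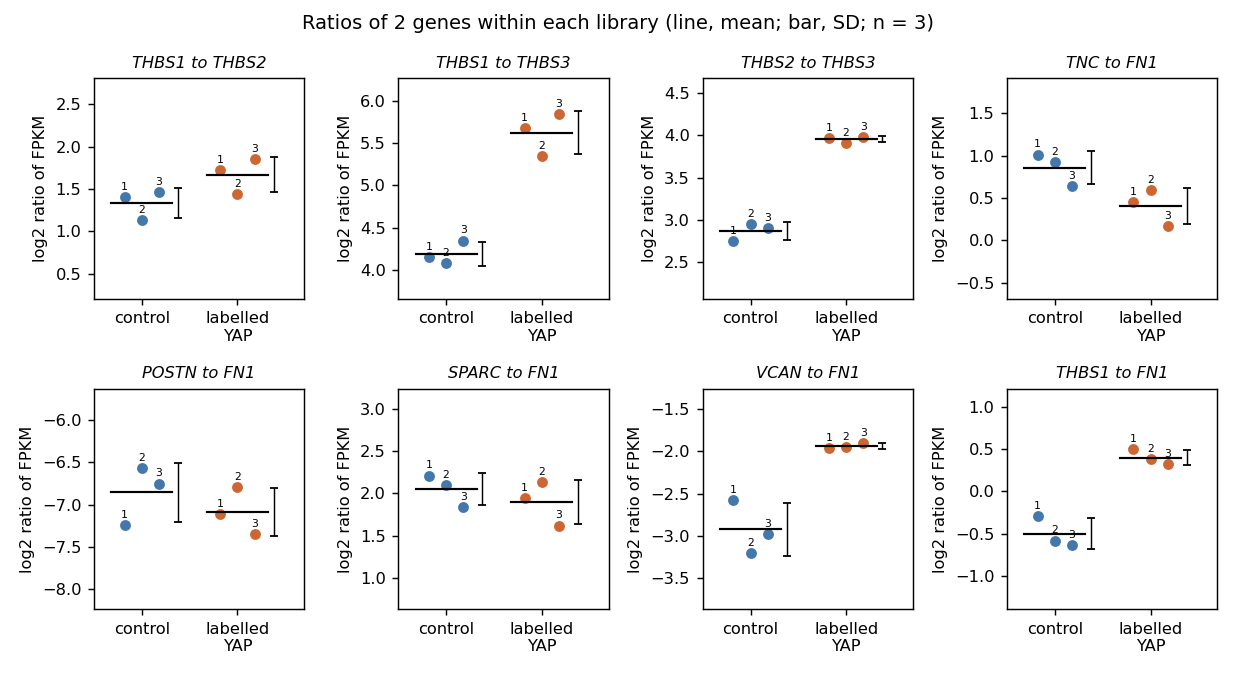
Log2 ratio of the FPKM of 2 genes within each library (vertical axis, the same span of log2 units in every panel) for the 8 ratios compared. Points are libraries marked with their replicate number, lines are means and bars are SD. The groups do not overlap for THBS1 to THBS3, THBS2 to THBS3, TNC to FN1, VCAN to FN1 and THBS1 to FN1.

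FN1, which encodes fibronectin, stood at 335, 412 and 533 FPKM in controls and at 540, 449 and 652 FPKM in the libraries labelled YAP. The ranges overlapped, since control replicate 3 exceeded YAP replicate 2. The log2 change of 0.37 (SE 0.16, 95% confidence interval 0.01 to 0.73) did not pass the test (limma adjusted p = 0.10). Of the 14 alternatives, 4 called FN1 higher, and their limma adjusted p ran from 0.0064 to 0.38. Leaving out a single library gave 2 of these calls, with adjusted p = 0.019 without control replicate 3 and 0.023 without YAP replicate 2. Splice forms of fibronectin cannot be seen in values per gene.

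VCAN, which encodes versican, stood at 56.2, 44.9 and 67.7 FPKM in controls and at 139, 116 and 175 FPKM in the libraries labelled YAP. The lowest of the latter was above the highest control by a wide margin, although the spread within each group was large (CV 20.3% and 20.6%). The log2 change was 1.33 (SE 0.16, 95% confidence interval 0.98 to 1.68, limma adjusted p = 8.1e-05), and 1.42% of tested genes had a larger rise. Its change and that of THBS1 differed by less than their SEs, and THBS1 had the larger one without control replicate 2 (1.22 against 1.18). Relative to FN1 within the same library, the log2 level of VCAN was -2.92 ± 0.31 in control libraries and -1.94 ± 0.03 in those labelled YAP, with no overlap (difference 0.98, exact p = 0.1). THBS1 to FN1 went from -0.50 ± 0.18 to 0.40 ± 0.09 (difference 0.90, exact p = 0.1), so that FN1 exceeded THBS1 in every control library and THBS1 exceeded FN1 in every library labelled YAP.

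TNC, SPARC and POSTN did not pass the test. TNC, the hexameric glycoprotein tenascin-C that is made in healing and stretched tissue, stood at 676, 781 and 829 FPKM in controls and at 736, 675 and 735 FPKM in the libraries labelled YAP. The values overlapped, and the log2 change was -0.09 (95% confidence interval -0.29 to 0.12, limma adjusted p = 0.49), with -0.00079 after median-of-ratios scaling and 0.02 after quantile normalization. The TNC to FN1 log2 ratio was nevertheless lower in all 3 libraries labelled YAP than in any control, at 0.86 ± 0.20 and 0.40 ± 0.21 (difference -0.45, exact p = 0.1).

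SPARC, a collagen-binding matricellular protein also known as osteonectin, was the most abundant of the 8. Its level was 1551, 1768 and 1912 FPKM in controls and 2066, 1962 and 2005 FPKM in the libraries labelled YAP, without overlap. The log2 change of 0.21 (SE 0.10, 95% confidence interval -0.0016 to 0.42) did not pass the test (limma adjusted p = 0.11). Of the 14 alternatives, 1 called SPARC higher, and their limma adjusted p ran from 0.015 to 0.35. The SPARC to FN1 ratio overlapped between the groups (difference -0.16, exact p = 0.6).

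POSTN, which encodes the integrin ligand periostin, was scarce, with 262 to 579 reads per library. It stood at 2.22, 4.33 and 4.95 FPKM in controls, the widest relative spread of the 8 genes (CV 37.4%). In the libraries labelled YAP it stood at 3.90, 4.06 and 4.01 FPKM, inside the control range. The log2 change was 0.09 (95% confidence interval -0.31 to 0.50, limma adjusted p = 0.71). It became -0.17 without control replicate 1, the low library. The POSTN to FN1 ratio overlapped too (difference -0.23, exact p = 0.4).

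**Figure D3:**
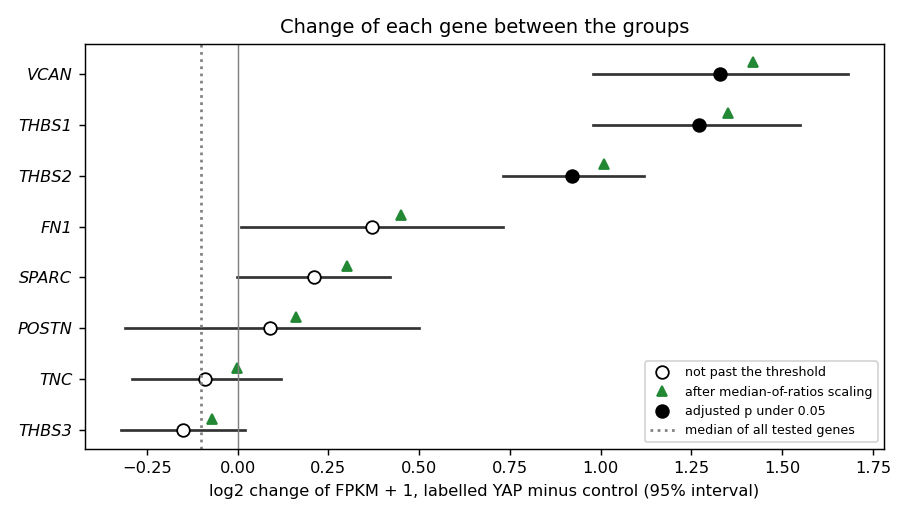
Log2 change of FPKM + 1, labelled YAP minus control (horizontal axis), with 95% intervals for the 8 genes. Filled circles passed adjusted p 0.05, triangles give the value after median-of-ratios scaling and the dotted line is the median of all tested genes, -0.10. VCAN, THBS1 and THBS2 lie at 0.92 to 1.33, and the other 5 lie between -0.15 and 0.37.

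Without regard to the test, 4 of the 8 genes were higher without overlap (THBS1, THBS2, VCAN and SPARC) and 1 was lower without overlap (THBS3). Of all tested genes, 16.7% were higher and 31.6% lower without overlap. Per length, the order of mean level in controls was SPARC, TNC, FN1, THBS1, THBS2, VCAN, THBS3 and POSTN, and FN1 and THBS1 were the only neighbours whose ranges overlapped. In the libraries labelled YAP, THBS1 stood next after SPARC at 721 ± 121 FPKM, beside TNC at 716 ± 34.9 FPKM, whose range it overlapped. No other neighbours overlapped there. Among all tested genes by mean FPKM, THBS1 went from place 234 to 101, THBS2 from 584 to 292 and VCAN from 1266 to 460. The 8 genes together took 1.47%, 1.67% and 1.91% of counted fragments in the controls and 2.27%, 1.98% and 2.42% in the libraries labelled YAP, and those ranges did not overlap. TNC gave the largest single share in controls, 0.624% ± 0.0637 (SD, n = 3).

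Within groups the 8 genes tended to be low or high in the same libraries. Control replicate 1 was the lowest control for 7 of them, all but VCAN, against 27.8% of all tested genes. Control replicate 3 was the highest control for 7, all but THBS2, against 40.2% of tested genes. YAP replicate 2 was the lowest of its group for 6, all but THBS3 and POSTN, against 40.9% of tested genes. Gene model length moved with this last pattern. YAP replicate 2 was the lowest of its group for 13.4% of tested genes under 2000 bases and for 86.9% of the 588 genes of 8000 bases or more, and control replicate 2 for 15.9% and 71.8%. FN1 (8357 bases), TNC (8183) and VCAN (12564) are in the longest class and THBS1 (5790) and THBS2 (5715) in the class below. The median log2 change between groups was -0.12 in the shortest class and -0.06 in the longest. With replicate number 2 left out of both groups, an alternative added after seeing the data, the changes were 1.36 for THBS1, 1.00 for THBS2, 1.32 for VCAN and 0.49 for FN1. FN1 then had limma adjusted p = 0.044, so 4 of the 8 genes were called higher, beside 1168 of all 10761 tested genes.

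Among relatives of the 8 genes (other thrombospondins, tenascins, lecticans, SPARC-family and fasciclin-domain genes), 15 of 16 listed had a row and 5 were tested. Of these, 2 rose and 2 fell, with 2 and 1 after median-of-ratios scaling or without any 1 of the 6 libraries, and 3 and 2 after quantile normalization. One of the 2 that fell was TGFBI, a fasciclin-domain protein gene, with limma adjusted p = 0.035. SPOCK1, a testican proteoglycan with a SPARC-like calcium-binding domain, rose from 1.21 ± 0.378 to 4.59 ± 0.217 FPKM (log2 change 1.36, limma adjusted p = 9.5e-06). SMOC1, a SPARC-related modulator of BMP signalling, fell from 1.98 ± 0.315 to 0.193 ± 0.0163 FPKM (log2 change -1.32, limma adjusted p = 1.9e-06). SMOC1 reached 1 FPKM only in controls, so it passed the filter only through the group where it was high. Its close relative SMOC2 rose from 5.14 ± 1.14 to 7.62 ± 0.355 FPKM (log2 change 0.50, limma adjusted p = 0.010). The list's median log2 change was 0.11. For this and the following lists, limma on the deposited FPKM of all 6 libraries called 12.9% of tested genes higher and 23.0% lower. Counts under other settings have their own background among the 10761 tested genes. Rescaling by median of ratios gave 1702 genes called higher and 1507 lower, and quantile normalization gave 1592 and 1957. Without YAP replicate 1 these counts were 1024 and 1387. Leaving out 1 library at a time gave 1024 to 1333 and 1387 to 2273.

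Receptors for these proteins moved both ways. Of 19 tested, 6 rose and 5 fell, with a median log2 change of -0.06. ITGA5, the integrin subunit that pairs with ITGB1 in the main fibronectin receptor, fell from 183 ± 13.7 to 124 ± 2.79 FPKM (log2 change -0.55, limma adjusted p = 2.8e-04). ITGB8, whose product with the alpha-V subunit binds latent TGF-beta, rose from 5.89 ± 0.865 to 10.9 ± 1.32 FPKM (log2 change 0.79, limma adjusted p = 3.4e-04). SDC2, a heparan sulfate syndecan, fell from 9.66 ± 1.34 to 5.50 ± 0.268 FPKM. Scaling by median of ratios left 6 receptors higher and 4 lower.

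Of 13 tested matrix partners and assembly genes, 6 rose and 3 fell (median log2 change 0.09). FBLN2, which encodes fibulin-2, a binding partner of versican and fibronectin, rose from 56.4 ± 5.03 to 132 ± 11.0 FPKM (log2 change 1.21, limma adjusted p = 1.9e-06). COL3A1, a fibrillar collagen chain, rose from 3385 ± 201 to 5903 ± 275 FPKM. In contrast, HAS2, one of the enzymes that make the hyaluronan to which versican binds, fell from 34.0 ± 5.40 to 15.7 ± 2.93 FPKM (log2 change -1.07, limma adjusted p = 1.5e-04). HAS1, another of these enzymes, fell as well, from 8.48 ± 2.82 to 3.27 ± 0.262 FPKM (limma adjusted p = 4.1e-04), and HAS3 was under the filter. With the other scaling, 6 partners were higher and 2 lower.

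Proteases that can cleave these proteins included 6 that rose and 4 that fell among 12 tested (median log2 change 0.23). ADAMTS5 and ADAMTS4, which cut versican and aggrecan, rose from 0.949 ± 0.131 to 6.26 ± 1.03 FPKM and from 8.27 ± 1.13 to 15.8 ± 0.344 FPKM (limma adjusted p = 4.0e-07 and 5.4e-05). ADAMTS5 was under 1 FPKM in control replicates 2 and 3, so it passed the filter only through the libraries labelled YAP, where it was high. MMP3, or stromelysin-1, fell from 79.6 ± 12.5 to 41.8 ± 3.72 FPKM (limma adjusted p = 1.3e-04). The other scaling gave 6 proteases that rose and 2 that fell, and without YAP replicate 1 the counts were 6 and 1.

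In the TGF-beta list, 3 of 15 tested genes rose and 7 fell (median log2 change -0.24). TGFB1, the ligand that thrombospondin-1 can release from latency, fell from 39.1 ± 3.69 to 21.9 ± 0.76 FPKM (log2 change -0.81, limma adjusted p = 3.3e-05). The latency protein genes LTBP3 and LTBP4 moved in opposite directions. LTBP3 fell from 31.8 ± 6.21 to 12.0 ± 0.285 FPKM (limma adjusted p = 7.5e-06) and LTBP4 rose from 6.996 ± 0.666 to 13.7 ± 0.508 FPKM (limma adjusted p = 2.3e-05). These counts, 3 and 7, were the same after median-of-ratios scaling. Of 17 tested genes for the sugar chains of these proteins, 3 rose and 3 fell (median -0.03), against 4 and 2 with the other scaling and 3 and 1 without YAP replicate 1. With the deposited FPKM of every library, 35.9% of all tested genes were called in either direction. The 3 that rose were CHST3, a chondroitin sulfotransferase (2.79 ± 0.209 to 5.09 ± 0.45 FPKM), XYLT2, which starts the chains on core proteins (17.0 ± 1.49 to 25.4 ± 0.699 FPKM), and UGDH, which supplies UDP-glucuronate (53.6 ± 4.84 to 71.3 ± 5.61 FPKM).

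**Figure D4:**
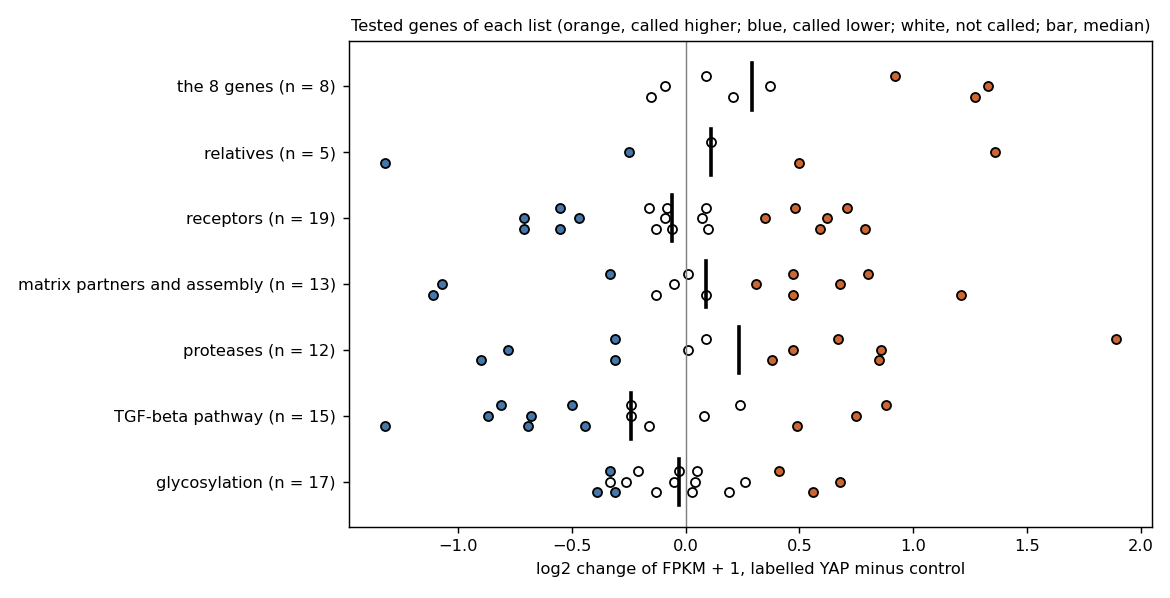
Log2 change of FPKM + 1, labelled YAP minus control (horizontal axis), of every tested gene in the 8-gene set and the 6 related lists. Each circle is a gene, coloured orange or blue where limma called it higher or lower and white where it did not pass, and bars are list medians. The lists hold changes in both directions, and the TGF-beta list has the lowest median, -0.24.

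For 7 of the 8 genes, all but THBS1, the tested gene with the most similar profile is given, found among 5256 others with a mean of at least 10 FPKM, as the smallest root mean square (RMS) difference in log2(FPKM + 1) from the control mean over the 6 libraries. For THBS2 this was DCN, the proteoglycan decorin and one of the stromal markers (RMS difference 0.069, 1430 ± 122 to 2767 ± 69.1 FPKM), and for VCAN it was COL12A1, a fibril-associated collagen chain (RMS difference 0.146, 20.9 ± 4.47 to 55.1 ± 12.6 FPKM). FN1 was nearest to PLOD2, a collagen lysyl hydroxylase (0.076), and SPARC to STAT3 (0.045). TNC was nearest to ARL1 (0.029), THBS3 to CTNNA1 (0.016) and POSTN to PSAT1 (0.067). Genes with small changes have many near neighbours: the median RMS difference to all candidates was 0.168 for THBS3 and 1.07 for VCAN.

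Markers of other cell types were read beside these results. The smooth muscle and pericyte list had 5 tested members of 8, of which 2 rose (ACTA2 and CNN1) and 1 fell (CSPG4). Its summed level was 1318 to 1793 FPKM in controls and 1769 to 2018 FPKM in the libraries labelled YAP, while MYH11 stayed at or below 0.141 FPKM and RGS5 at or below 0.0161 FPKM. TAGLN gave the largest part of that sum (945 ± 158 to 979 ± 67.5 FPKM) and did not pass the test (limma adjusted p = 0.70). SMTN did not pass either (53.0 ± 6.22 to 60.8 ± 5.26 FPKM, limma adjusted p = 0.15). The cartilage and bone list had 3 tested members of 8, all lower (SOX9, RUNX2 and SP7), with sums of 12.3 to 13.9 and 7.28 to 8.59 FPKM and COL2A1 at no more than 0.0112 FPKM. SOX9 and SP7 reached 1 FPKM only in controls, so they passed the filter only through the group where they were high. Endothelial markers summed to 15.1 to 22.1 and 12.8 to 17.0 FPKM, nearly all from EGFL7, with PECAM1, CDH5 and KDR at no more than 0.419 FPKM. The leukocyte list summed to 22.7 to 25.9 and 30.3 to 32.2 FPKM with 3 of 8 members tested, of which CD14 rose (9.58 ± 1.38 to 18.6 ± 0.174 FPKM) and CD68 fell (4.53 ± 0.437 to 2.03 ± 0.278 FPKM), and with AIF1 listed at 0 in all libraries and PTPRC at no more than 0.00614 FPKM. Epithelial markers summed to at most 2.17 FPKM, and KRT18 was listed at 0 in all libraries. The part of these markers, and of gene length, in the changes and ratios of the 8 genes was not tested.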

How the data were processed

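Per the labels' protocols, TRIzol was used to isolate RNA and the VAHTS Universal V6 kit to prepare libraries. Tools named in the submitters' processing notes are HISAT2, HTSeq and fastp, with no version. Not given in the sources used here were the genome build, annotation and strand setting, so no coordinates are printed. The authors deposited FPKM values per library in 2 tables with the same 16285 identifiers. FPKM is scaled library by library, and the groups were compared across the tables. A further 6 columns of per-sample values, named for TAZ and for pcDNA, an expression vector, match no sample label and were not used. The labels do not say whether the control cells carried an empty vector. The tables' symbols named the genes, and 16262 of them, with all 8 genes described here, matched RefSeq (assembly ARS1.2).

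Reads were recovered from the deposited FPKM: relative depth came from the commonest exact ratio between low values, and total depth from the scale at which gene lengths became whole. They were whole within 0.05 reads for 100.0% of values above 0. A library's floor of 3 reads corresponds to 0.0273 to 0.0311 FPKM at the median tested length of 2958 bases, for counting error only.

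Genes that reached 1 FPKM in 3 or more libraries entered the test on the log2(FPKM + 1) scale (pseudocount 1), which understates changes of low genes, with limma 3.58.1 in R 4.3.3 (eBayes with a variance trend, two-sided, threshold 0.05). The steps were run on simulated counts drawn independently for each gene and library. That simulation held no pattern by gene length or replicate number, so it does not cover those features of these data. Groups and replicate numbers came from the sample titles. The 8 genes, the gene lists and the rules were chosen with earlier results of these data known. The text names the 8 genes, YAP1 and WWTR1, up to 3 called members per pathway list with the smallest adjusted p, the nearest gene in profile (that of THBS1 is not reported here), and the highest or lowest markers. Other genes were named after their values were seen. Alternatives were another pseudocount (0.1), no filter, median-of-ratios scaling, quantile normalization, no variance trend, a replicate block, limma-voom on recovered reads, and leaving out libraries.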

Additional observations from a re-analysis of the deposited data

How the results depend on the processing

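Over the 14 alternatives, the log2 change ran from 1.17 to 1.41 for THBS1, from 0.83 to 1.01 for THBS2 and from 1.18 to 1.47 for VCAN, always past the threshold. Leaving out 1 library at a time moved FN1 from 0.21 to 0.54 and POSTN from -0.17 to 0.27, and without replicate number 2 in both groups FN1 was 0.49. TNC turned to 0.02 after quantile normalization, and PSAT1, the gene nearest to POSTN, to -0.20 without control replicate 1. PLOD2, the gene nearest to FN1, was past the threshold in 7 of 14 alternatives. Genes called lower numbered 1507 after median-of-ratios scaling, and leaving out 1 library at a time gave 1387 to 2273. Same-numbered samples deviated together for numbers 2 and 3 (correlations of deviations 0.591 and 0.597) but not for number 1 (-0.018). Control replicate 2 with YAP replicate 3 gave -0.563, and control replicate 3 with YAP replicate 2 gave -0.62. Whether the shared numbers mark a pairing of samples was not tested. With the replicate block, FN1 (0.37, limma adjusted p = 0.0064) and SPARC (0.21, limma adjusted p = 0.015) passed the threshold, 5 of the 8 genes were called higher, 1828 of all tested genes were called higher and 3745 lower, and 11 sugar-chain genes were called. It changed no other call among the 8 genes. Neither library numbered 1 correlated best with its own number. The cause of these shifts was not tested. With 3 libraries a group, the exact test of a ratio cannot go below 0.1. POSTN rested on the fewest reads, 262 to 579.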

Other observations

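Several relatives and receptors of the 8 genes were under the filter and untested, and those given here were chosen after their values were seen. SPARCL1, the closest relative of SPARC, stood at 0.101 to 0.204 FPKM in controls (11 to 22 reads) and 0.513 to 0.866 FPKM in the libraries labelled YAP (59 to 100 reads). CD36, a thrombospondin receptor and fatty acid transporter of adipocytes, stood at 0.163 to 0.461 FPKM (25 to 73 reads) in controls and at 0.0135 to 0.0299 FPKM (2 to 5 reads) in the libraries labelled YAP. ACAN, the cartilage relative of VCAN, had 8 to 11 reads per control library and 0 in each library labelled YAP. TNN, a relative of TNC, had 1 to 6 reads in controls and 8 to 13 in the libraries labelled YAP.

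In the deposited pathway annotation, 5 of the 8 genes (THBS1, THBS2, THBS3, FN1 and TNC) carried the term ECM-receptor interaction. Of the 42 tested genes with that term, 13 were called higher and 8 lower by limma, with a median log2 change of 0.03. Of the 137 tested focal adhesion genes, which hold the same 5, 25 were higher and 28 lower (median -0.09). Over all tested genes, 12.9% were called higher and 23.0% lower. These terms were chosen after the data were seen.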
